A study of Mus musculus with 2 samples.

Results

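The genes described here are the homeostatic CXC chemokines Cxcl12, Cxcl14 and Cxcl16 and the receptors Cxcr4, Cxcr6 and Ackr3, which were taken by name as 6 of the 32285 genes counted in single-cell RNA-seq of LLC tumors. LLC (Lewis lung carcinoma) is a mouse lung cancer cell line that was inoculated subcutaneously at 8 weeks of age into C57BL/6 mice. The sGC Ctr mice were Gucy1b1 flox/flox, and the sGC ∆PC mice carried Cspg4-CreERT2 on the same Gucy1b1 flox/flox background, so that loss of the β1 subunit of soluble guanylate cyclase (sGC), the receptor of nitric oxide, was directed to cells that use the Cspg4 promoter. Pericytes are the intended targets, and Cspg4 is also used by other cells: in the sGC Ctr library its level was 162 CPM (UMIs per 1000000) in pericytes and 53.0 CPM in macrophages. Gucy1b1 itself stood at 121 CPM in pericytes and at 0.0720 CPM (2 UMIs) in macrophages of that library. In the study's lineage tracing, every cell labeled through Cspg4-CreERT2 in LLC tumors carried the pericyte marker Desmin. All mice of both genotypes were given tamoxifen 5 times at the age of 4 weeks, tumors were taken 2 weeks after inoculation, and the cells of 3 tumors per genotype were pooled into 1 library.

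With 1 library per genotype and no label that ties a cell to its tumor, no test between genotypes was possible and no p-value is given. Levels are UMIs (unique molecular identifiers, 1 per captured transcript) of a gene summed over the cells of a class and divided by all UMIs of that class, times 1000000 (CPM). Intervals in parentheses are exact 95% intervals (Poisson for levels, Clopper-Pearson for shares of cells, conditional binomial for ratios). Where no cell held a UMI, the limit is 3 of the number of cells, a limit on cells with a UMI and not on cells expressing the gene. Intervals and limits cover counting error only and not the spread between tumors or libraries. Differences between the libraries are log2 ratios of CPM, sGC ∆PC over sGC Ctr, and genes past 2-fold are counted among those whose UMIs in the 2 libraries summed to 50 or more.

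Chemokines of the CXC family are small secreted proteins that guide cells through G protein-coupled receptors. Cxcl12 is made constitutively by stromal and endothelial cells, signals through Cxcr4, and is taken up and degraded by the atypical receptor Ackr3. Cxcl16 is made as a membrane-anchored protein on myeloid cells and is bound by Cxcr6 on effector and tissue-resident lymphocytes, while Cxcl14 is a homeostatic chemokine of epithelium and fibroblasts whose signaling receptor is not settled.

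On build GRCm38 (mm10), Cxcl12 lies on chromosome 6 from 117168535 to 117181367 (plus strand), Cxcl14 on chromosome 13 from 56288643 to 56296551 (minus), and Cxcl16 on chromosome 11 from 70453983 to 70459984 (minus). Cxcr4 lies on chromosome 1 from 128588199 to 128592293 (minus), Ackr3 on the same chromosome from 90203980 to 90216751 (plus), and Cxcr6 on chromosome 9 from 123806475 to 123811760 (plus). Cxcl16 overlaps Zmynd15, which lies on the opposite strand from 70459433 to 70466202, and Cxcr6 lies inside Fyco1 on the opposite strand. Any effect of these overlaps on the counts was not tested.

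The sequences upstream of Cxcl12, Cxcr4 and Ackr3 are shown because these genes form a ligand and its receptors, and because Cxcl12 and Ackr3 followed each other across the cell classes while Cxcr4 and Ackr3 were found in the same ECs. Each line gives the 250 bases before the annotated start of the gene on its own strand (RefSeq, GRCm38.p6), with capitals at the HIF core motif (ACGTG or GCGTG), the GC box (GGGCGG) and the TATA box (TATAAA), searched on both strands.
Cxcl12: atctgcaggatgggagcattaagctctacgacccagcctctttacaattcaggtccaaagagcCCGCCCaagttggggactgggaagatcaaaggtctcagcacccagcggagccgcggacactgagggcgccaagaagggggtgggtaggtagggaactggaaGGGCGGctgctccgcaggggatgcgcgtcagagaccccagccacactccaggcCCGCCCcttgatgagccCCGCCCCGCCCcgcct
Cxcr4: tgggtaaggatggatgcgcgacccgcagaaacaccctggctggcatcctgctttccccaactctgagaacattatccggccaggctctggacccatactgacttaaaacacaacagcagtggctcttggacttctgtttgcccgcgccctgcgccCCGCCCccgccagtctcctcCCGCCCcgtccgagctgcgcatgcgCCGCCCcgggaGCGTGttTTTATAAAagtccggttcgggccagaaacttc
Ackr3: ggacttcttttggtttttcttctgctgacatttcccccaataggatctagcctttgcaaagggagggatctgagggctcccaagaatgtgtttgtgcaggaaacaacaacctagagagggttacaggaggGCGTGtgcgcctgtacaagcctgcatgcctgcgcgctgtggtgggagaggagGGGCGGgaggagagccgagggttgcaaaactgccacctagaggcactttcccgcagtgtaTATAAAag

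The Cxcl12 window held 5 GC boxes, of which 1 pair overlapped, and no match to the HIF core or the TATA box. The Cxcr4 window held 3 GC boxes, 1 HIF core and overlapping TATA box matches on both strands, the plus-strand match starting 30 bases before the gene start. In the Ackr3 window 1 match to each motif was found, with the TATA box 8 bases before the start. Of all 32851 mouse promoters of the same length, 38.6% held a HIF core, 32.7% a GC box and 12.4% a TATA box. The Cxcl14 window held 2 HIF cores and neither other motif, and the Cxcr6 window held none of the 3.

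The sGC Ctr library held 15007 cell barcodes and 487859656 UMIs and the sGC ∆PC library 25631 barcodes and 436352742 UMIs, with 131 barcode sequences in both. After filters on UMIs, genes and mitochondrial reads, 12220 and 22498 cells were kept, with medians of 35776.5 and 8685 UMIs per cell, so that the sGC ∆PC library was the shallower of the pair. Cells were placed in classes by gates on marker lists that hold none of the 6 genes, and a cell that passed several gates was left out. The class names stand for cells that are like that type by these markers. The gates held 155 and 338 fibroblasts, 41 and 50 pericytes, 66 and 76 ECs, 7186 and 11921 cancer cells, 2274 and 3307 macrophages, 378 and 394 monocytes, 68 and 57 dendritic cells, 301 and 336 granulocytes, and 76 and 73 T cells (sGC Ctr and sGC ∆PC). Of the fibroblasts, 16 and 64 lay close to the gate's cut, and 206 and 362 other cells that passed the fibroblast gate also passed another. In pericytes, the targeted gene Gucy1b1 had 59 UMIs (121 CPM, 92.3 to 156) in sGC Ctr and 12 UMIs (33.2 CPM, 17.2 to 58.0) in sGC ∆PC, in the direction of the labels, with a log2 ratio of -1.87 (-2.90 to -0.96) that was -0.76 after thinning cells to 2000 UMIs.

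The leading class was the same in both libraries for 5 of the 6 genes. Cxcl12, Cxcl14 and Ackr3 were highest in fibroblasts, Cxcl16 in macrophages and Cxcr6 in T cells. Cxcr4 led in granulocytes of sGC Ctr tumors and in ECs of sGC ∆PC tumors. The plot of levels by class shows these patterns on one axis.

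**Figure D1:**
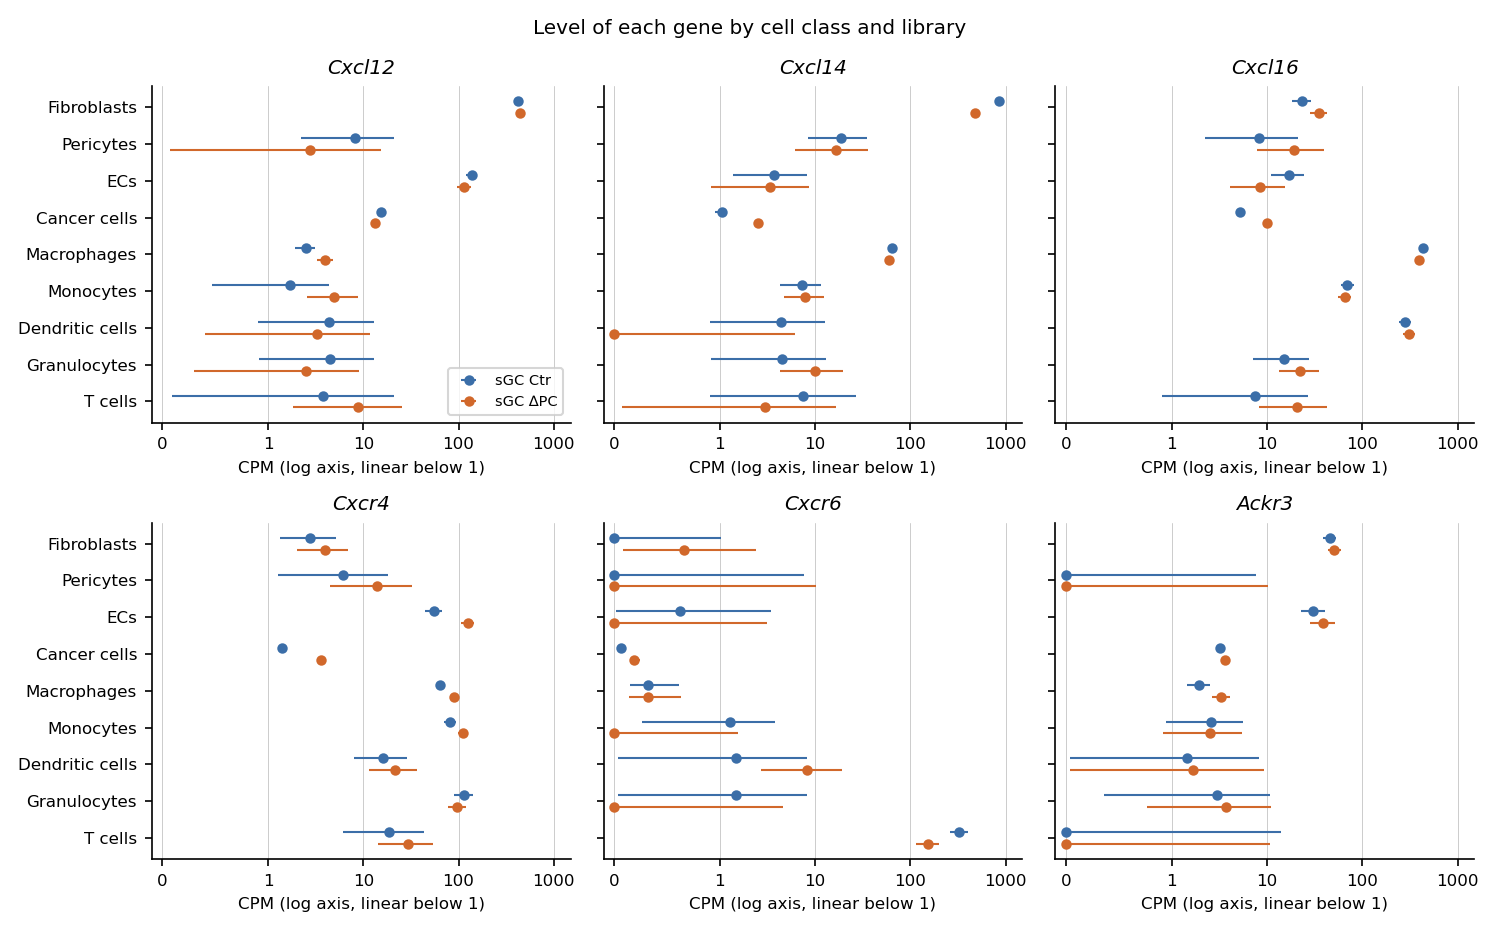
Level of each of the 6 genes (CPM, log axis that is linear below 1) in 9 cell classes of the sGC Ctr library (blue) and the sGC ∆PC library (orange); bars are exact 95% Poisson intervals. Cxcl12 stood at 423 and 442 CPM in fibroblasts, and Cxcr6 at 323 and 153 CPM in T cells.

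Cxcl12 was a fibroblast and endothelial transcript in these tumors and was nearly absent from pericytes. Fibroblasts held 1515 UMIs in sGC Ctr (423 CPM, 402 to 444) and 1347 UMIs in sGC ∆PC (442 CPM, 419 to 466). The libraries lay close together, with a log2 ratio of 0.06 (-0.04 to 0.17). ECs held 222 and 135 UMIs, or 138 CPM (121 to 158) and 114 CPM (95.5 to 135), with a log2 ratio of -0.28 (-0.60 to 0.03). Fibroblasts thus stood 3.05-fold (2.65 to 3.53) above ECs in sGC Ctr and 3.88-fold (3.25 to 4.66) in sGC ∆PC, and ECs stood 8.99-fold (7.83 to 10.3) and 8.49-fold (7.10 to 10.1) above cancer cells. From cancer cells down, no neighbors in the order of classes were separated by their intervals.

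The agreement of the pooled Cxcl12 sums in fibroblasts did not hold under every weighting of cells. A mean over cells of the per-cell CPM, in which shallow cells count as much as deep ones, gave 441 CPM in sGC Ctr and 314 CPM in sGC ∆PC, a log2 ratio of -0.49, and thinning every cell to 2000 UMIs gave -0.55. A Cxcl12 UMI was found in 122 of 155 fibroblasts (78.7%, 71.4 to 84.9) of sGC Ctr and in 182 of 338 (53.8%, 48.4 to 59.3) of sGC ∆PC, at medians of 22156 and 4055.5 UMIs per cell. After thinning, the shares were 45.3% (37.2 to 53.7) and 43.0% (36.8 to 49.4), with 5 and 87 shallower cells left out. For comparison, 2.24% and 2.72% of macrophages held a Cxcl12 UMI at medians of 11271.5 and 4885 UMIs, and 0.355% and 0.908% after thinning.

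In ECs a few cells carried most of the Cxcl12. In sGC Ctr tumors 1 EC held 84 of the 222 UMIs and 2 cells held 50% of them, and in sGC ∆PC tumors the top cell held 22 UMIs and 5 cells held 50%. Without the top cell of each library the log2 ratio was 0.16 (-0.21 to 0.53), with mitochondrial reads limited to 5% it was 0.66 (0.25 to 1.06), and after thinning it was -1.07 (-2.15 to -0.06), so these libraries gave no stable direction for Cxcl12 in ECs. A UMI was found in 22 of 66 ECs (33.3%, 22.2 to 46.0) and in 23 of 76 (30.3%, 20.2 to 41.9), at medians of 22381.5 and 8422 UMIs.

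Among pericytes, Cxcl12 was found in 1 of 41 cells in sGC Ctr, which held 4 UMIs (8.22 CPM, 2.24 to 21.1), and in 1 of 50 cells in sGC ∆PC, which held 1 UMI (2.77 CPM, 0.0701 to 15.4). Those shares, 2.44% (0.0617 to 12.9) and 2.00% (0.0506 to 10.6), have intervals that hold the macrophage shares above, and expression in pericytes was not detectable over that background at this depth. Fibroblasts stood 51.4-fold above pericytes in sGC Ctr and 160-fold in sGC ∆PC, with wide intervals since the pericyte counts were so low.

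Cancer cells held Cxcl12 at a low level per cell but most of it in sum. Their level was 15.4 CPM (15.0 to 15.8) in sGC Ctr and 13.4 CPM (13.0 to 13.8) in sGC ∆PC, a log2 ratio of -0.20 (-0.25 to -0.14), and with 86.2% and 83.0% of all UMIs of kept cells they held 70.0% and 64.1% of all Cxcl12 UMIs. A UMI was found in 32.6% (31.5 to 33.7) and 20.5% (19.8 to 21.3) of cancer cells, at medians of 51501.5 and 15541 UMIs, and in 3.08% (2.70 to 3.51) and 2.71% (2.42 to 3.02) after thinning. These thinned shares lay above those of macrophages in the same libraries, 0.355% (0.153 to 0.699) and 0.908% (0.570 to 1.37). The genes that differed most between cancer cells with and without Cxcl12 were all sparse in that class, among them the Wnt antagonist Sfrp1 (0.204 against 0.0852 CPM in sGC Ctr, 0.780 against 0.319 in sGC ∆PC), the prostacyclin synthase gene Ptgis (0.236 against 0.0968, and 0.962 against 0.289) and the fibroblast marker Rarres2 (2.38 against 0.786, and 8.79 against 2.75).

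Cxcl14 was highest in fibroblasts, where a few cells held much of it. Fibroblasts held 3057 UMIs in sGC Ctr (853 CPM, 823 to 883) and 1454 UMIs in sGC ∆PC (477 CPM, 453 to 502), giving a log2 ratio of -0.84 (-0.93 to -0.75). All 11 alternative settings gave a lower value in sGC ∆PC, between -1.53 and -0.74. In sGC Ctr 1 fibroblast held 413 of the UMIs and 5 cells held 50%, and in sGC ∆PC 1 cell held 254 and 6 cells held 50%. Cxcl14 was found in 41.3% (33.5 to 49.5) and 28.1% (23.4 to 33.2) of fibroblasts, and in 26.7% (19.8 to 34.5) and 23.5% (18.4 to 29.2) after thinning, so that the shares of positive cells at equal depth overlapped while the levels did not. Within the fibroblast class the smooth muscle list was counted at 352 CPM in sGC Ctr and 103 CPM in sGC ∆PC, with 0 and 2 of its 6 markers at 0, and the macrophage list at 162 and 369 CPM, with none of its 8 markers at 0; their part in the Cxcl14 difference was not tested.

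Macrophages were the second source of Cxcl14, at 64.6 CPM (61.6 to 67.7) in sGC Ctr and 59.5 CPM (56.6 to 62.6) in sGC ∆PC, a log2 ratio of -0.12 (-0.22 to -0.02). A UMI was found in 30.8% (28.9 to 32.7) and 20.5% (19.1 to 21.9) of macrophages, and in 11.1% (9.79 to 12.4) and 9.86% (8.70 to 11.1) after thinning, against 1.06% and 2.29% of thinned monocytes. Fibroblasts stood 13.2-fold (12.4 to 14.0) and 8.01-fold (7.45 to 8.62) above macrophages. Pericytes held 9 UMIs (18.5 CPM) and 6 UMIs (16.6 CPM). ECs, monocytes, dendritic cells, granulocytes and T cells lay at or below 9.95 CPM, and 0 of 57 dendritic cells of sGC ∆PC held a UMI, which allows a share of up to 5.26%.

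Cxcl16 was highest in macrophages, dendritic cells and monocytes. Granulocytes, which are also myeloid, held only 10 and 18 UMIs (14.9 and 22.4 CPM). Macrophages held 12109 UMIs in sGC Ctr (436 CPM, 428 to 444) and 9806 UMIs in sGC ∆PC (392 CPM, 384 to 400), with a log2 ratio of -0.15 (-0.19 to -0.12). Dendritic cells came next at 278 CPM (240 to 321) and 309 CPM (266 to 356), giving a log2 ratio of 0.15 (-0.15 to 0.45), and monocytes followed at 69.7 CPM (59.4 to 81.3) and 65.6 CPM (55.7 to 76.6), giving a log2 ratio of -0.09 (-0.41 to 0.24). Macrophages stood 1.57-fold (1.36 to 1.82) and 1.27-fold (1.10 to 1.47) above dendritic cells and 6.26-fold (5.36 to 7.35) and 5.98-fold (5.11 to 7.04) above monocytes. Cxcl16 was detected in 92.1% (90.9 to 93.2) and 63.4% (61.7 to 65.0) of macrophages, and in 52.9% (50.8 to 55.0) and 46.6% (44.6 to 48.6) after thinning, against 1.61% and 1.54% of thinned ECs. Fibroblasts held 83 and 106 UMIs, or 23.1 CPM (18.4 to 28.7) and 34.8 CPM (28.5 to 42.1), giving a log2 ratio of 0.59 (0.16 to 1.02) that ran from 0.36 in cells with a cancer-cell RNA share under 25% to 1.51 as the mean of per-cell CPM. The macrophage list in that class stood at 162 and 369 CPM, and its part in the difference was not tested. The remaining stromal classes were low, with 27 and 10 UMIs in ECs (16.8 and 8.44 CPM) and 4 and 7 UMIs in pericytes (8.22 and 19.4 CPM).

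**Figure D2:**
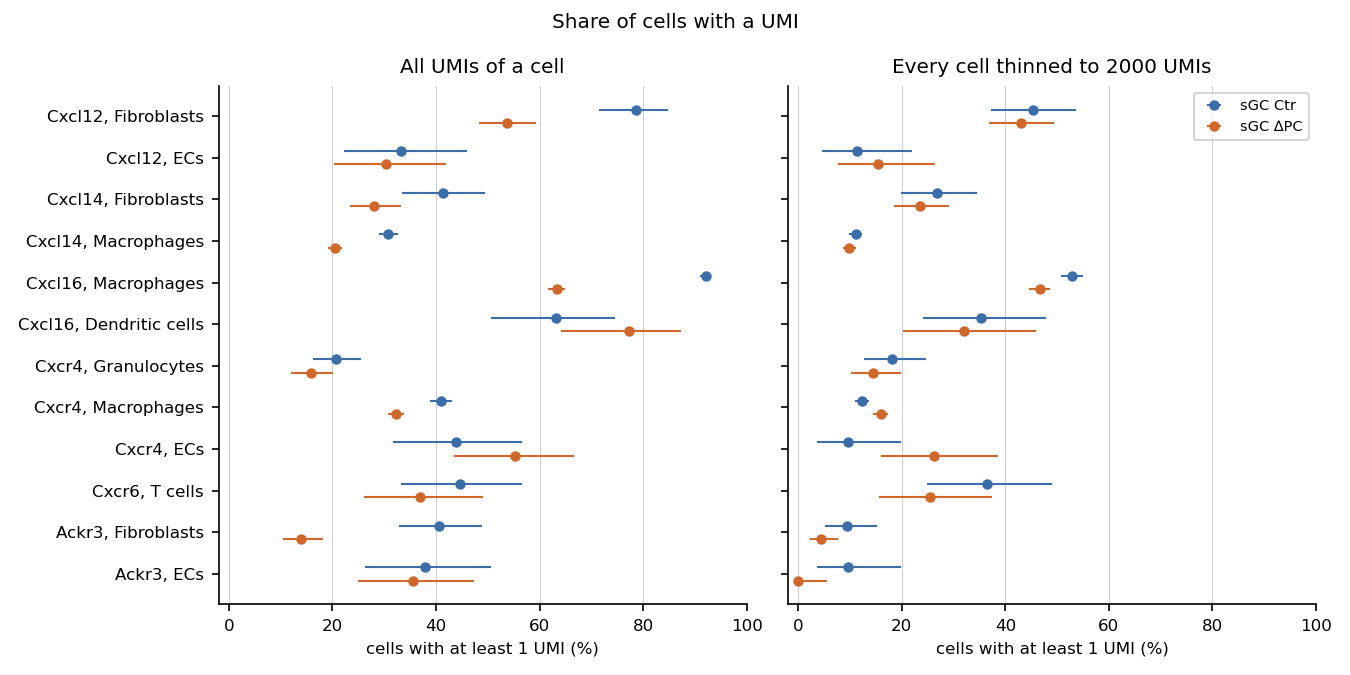
Share of cells with at least 1 UMI (percent) for 12 pairs of gene and class, from all UMIs of a cell (left) and with every cell thinned to 2000 UMIs (right), in sGC Ctr (blue) and sGC ∆PC (orange); bars are exact 95% intervals. For Cxcl12 in fibroblasts the shares were 78.7% and 53.8% with all UMIs and 45.3% and 43.0% after thinning.

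Cxcr4, the signaling receptor of Cxcl12, was a receptor of myeloid cells and ECs here, with little in fibroblasts. In sGC Ctr its order was granulocytes at 113 CPM (76 UMIs, 88.9 to 141), monocytes at 80.8 CPM (189 UMIs, 69.7 to 93.2), macrophages at 64.0 CPM (1776 UMIs, 61.0 to 67.0) and ECs at 54.9 CPM (88 UMIs, 44.0 to 67.6). In sGC ∆PC the order was ECs at 125 CPM (148 UMIs, 106 to 147), monocytes at 112 CPM (271 UMIs, 99.5 to 127), granulocytes at 97.0 CPM (78 UMIs, 76.7 to 121) and macrophages at 90.6 CPM (2266 UMIs, 86.9 to 94.4). Neighbors were judged by the interval of their ratio. In sGC Ctr, granulocytes stood 1.40-fold (1.06 to 1.83) above monocytes, although the intervals of their levels overlapped. Monocytes stood 1.26-fold (1.08 to 1.47) above macrophages, and macrophages and ECs were not separated (1.17-fold, 0.941 to 1.46). In sGC ∆PC no neighbors among these 4 classes were separated. Granulocytes stood 2.06-fold (1.49 to 2.83) above ECs in sGC Ctr and at 0.777 times their level (0.583 to 1.03) in sGC ∆PC. Fibroblasts held 10 and 12 UMIs (2.79 and 3.94 CPM), pericytes 3 and 5 UMIs (6.17 and 13.8 CPM), dendritic cells 11 and 13 UMIs (16.1 and 21.5 CPM) and T cells 5 and 10 UMIs (18.8 and 29.4 CPM).

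Cxcr4 in ECs was higher in sGC ∆PC than in sGC Ctr tumors by a log2 ratio of 1.19 (0.80 to 1.58). It was the 1 gene past 2-fold among the 3 of these genes with enough UMIs in ECs, a class in which 1.65% of 6237 genes were past 2-fold. All 11 alternative settings gave log2 ratios between 1.04 and 1.37, the one without the top cell of each library included. Cxcr4 was detected in 29 of 66 ECs (43.9%, 31.7 to 56.7) and in 42 of 76 (55.3%, 43.4 to 66.7), and after thinning in 6 of 62 (9.68%, 3.63 to 19.9) and 17 of 65 (26.2%, 16.0 to 38.5), against 1.33% and 2.39% of thinned fibroblasts. The macrophage list in ECs was counted at 145 CPM in sGC Ctr and 225 CPM in sGC ∆PC with none of its 8 markers at 0, the granulocyte list at 15.0 and 37.1 CPM with 1 and 2 of its 6 markers at 0, the pericyte list at 188 and 112 CPM, and the T-cell list at 12.5 CPM and at 0 for all 7 markers. The ECs also differed in lists described below. A venous list had 53 UMIs in ECs with Cxcr4 and 281 in those without in sGC Ctr, and 83 and 54 in sGC ∆PC. A tip-cell list had 1913 and 624 UMIs in sGC Ctr, and 2391 and 178 in sGC ∆PC. All UMIs of the class numbered 1604052 and 1184623. The part of all these lists in the Cxcr4 difference was not tested.

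Monocytes and macrophages also held more Cxcr4 in sGC ∆PC, with log2 ratios of 0.48 (0.20 to 0.75) and 0.50 (0.41 to 0.59), the latter 0.19 as the mean of per-cell CPM. None of the 2 genes with enough UMIs in monocytes or of the 5 in macrophages was past 2-fold, in classes where 0.888% and 1.48% of all genes were. In macrophages a UMI was found in 40.9% (38.9 to 43.0) and 32.3% (30.7 to 33.9) of cells, and after thinning in 12.3% and 15.9% of them. The shares before thinning ran against the levels, and no order is read from them. In granulocytes the log2 ratio was -0.22 (-0.69 to 0.26), with 0 of 1 gene past 2-fold against 2.66% of all genes of the class.

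Cxcr6, the receptor of Cxcl16, was far higher in T cells than in any other class measured. T cells held 86 UMIs in sGC Ctr (323 CPM, 258 to 399) and 52 UMIs in sGC ∆PC (153 CPM, 114 to 200), giving a log2 ratio of -1.08 (-1.61 to -0.57). It was past 2-fold as the 1 of these genes with enough UMIs in T cells, where 2.40% of 1666 genes were past 2-fold, and 10 alternative settings gave values between -1.26 and -0.71. The difference was under 2-fold with cells passing another gate kept (-0.89), as the mean of per-cell CPM (-0.84), after thinning (-0.75) and in cells with a cancer-cell RNA share under 25% (-0.71). Cxcr6 was detected in 34 of 76 T cells (44.7%, 33.3 to 56.6) and in 27 of 73 (37.0%, 26.0 to 49.1), and after thinning in 36.4% (24.9 to 49.1) and 25.4% (15.5 to 37.5), intervals that overlapped. The NK-cell list in the T-cell class was counted at 695 CPM in sGC Ctr and 153 CPM in sGC ∆PC, with 3 of its 8 markers at 0 in each. The T-cell class also differed in its make-up. A gamma-delta T-cell list had 86 UMIs in cells with Cxcr6 and 3 in those without in sGC Ctr, and 1 and 15 in sGC ∆PC. An effector list had 977 and 464 UMIs in sGC Ctr, and 265 and 311 in sGC ∆PC. The part of these lists in the Cxcr6 difference was not tested. Macrophages held 9 and 8 UMIs (0.324 and 0.320 CPM), and T cells stood 996-fold (501 to 2252) and 478-fold (225 to 1164) above them. Pericytes held no UMI in 41 and 50 cells, which allows shares of up to 7.32% and 6.00%. Although T cells held only 0.0559% and 0.0827% of all UMIs, they held 55.5% and 31.3% of the Cxcr6 UMIs, and the many cancer cells held 16.1% and 39.2%.

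Ackr3, the scavenging receptor of Cxcl12, was highest in the same classes as the ligand, fibroblasts and ECs. Fibroblasts held 163 UMIs in sGC Ctr (45.5 CPM, 38.8 to 53.0) and 155 UMIs in sGC ∆PC (50.9 CPM, 43.2 to 59.5), giving a log2 ratio of 0.16 (-0.16 to 0.49). As for Cxcl12, the mean of per-cell CPM reversed the order (50.6 and 23.0 CPM, log2 ratio -1.14), and thinning gave -0.97 (-2.21 to 0.25). ECs held 49 UMIs (30.5 CPM, 22.6 to 40.4) and 46 UMIs (38.8 CPM, 28.4 to 51.8), giving a log2 ratio of 0.35 (-0.27 to 0.96). Fibroblasts stood 1.49-fold (1.08 to 2.09) above ECs in sGC Ctr and 1.31-fold (0.937 to 1.86) in sGC ∆PC, where the interval held 1. None of the 4 genes with enough UMIs in fibroblasts was past 2-fold, against 2.35% of the 8884 genes of that class.

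An Ackr3 UMI was found in 40.6% (32.8 to 48.8) and 13.9% (10.4 to 18.1) of fibroblasts, and in 9.33% (5.20 to 15.2) and 4.38% (2.21 to 7.71) after thinning. In ECs the shares were 37.9% (26.2 to 50.7) and 35.5% (24.9 to 47.3), and after thinning 6 of 62 cells and 0 of 65, counts too low to read a difference from. Pericytes held no Ackr3 UMI in 41 and 50 cells and T cells none in 76 and 73, which allows shares of up to 7.32%, 6.00%, 3.95% and 4.11%. Cancer cells stood at 3.17 CPM (3.00 to 3.35) and 3.61 CPM (3.42 to 3.82), below ECs, which were 9.64-fold (7.09 to 12.8) and 10.7-fold (7.82 to 14.4) higher.

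**Figure D3:**
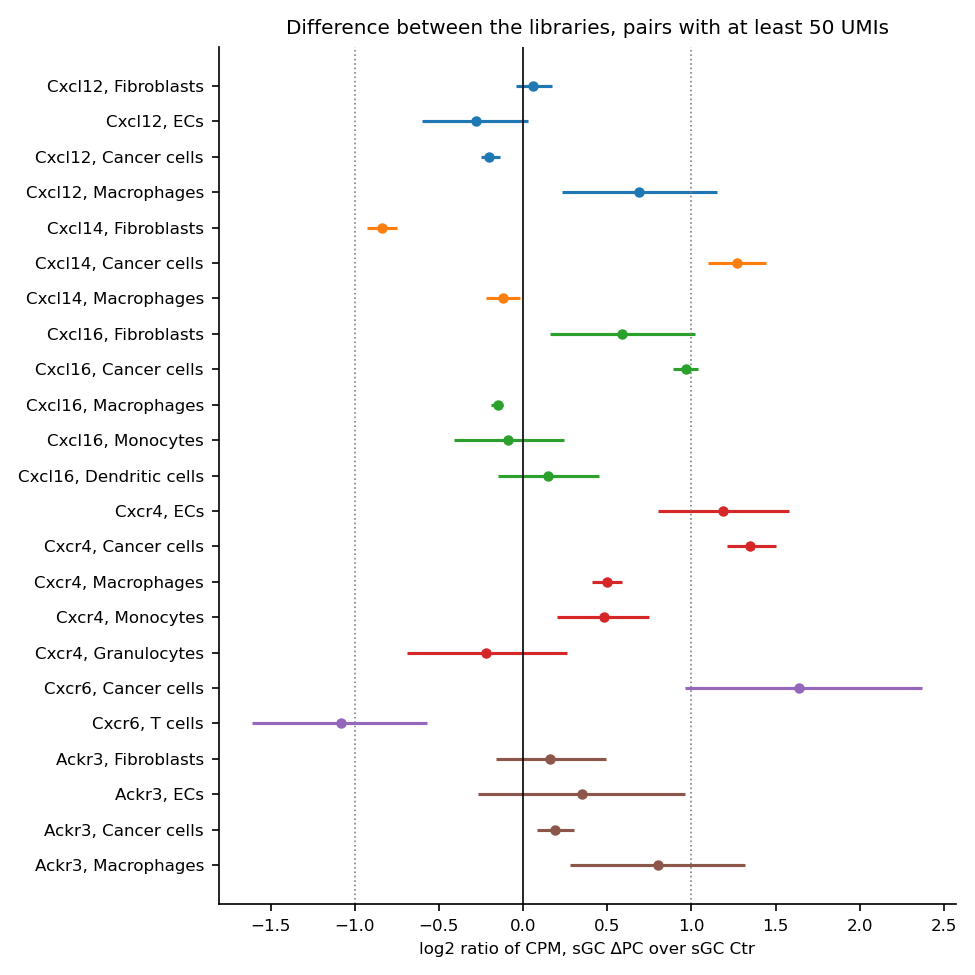
Log2 ratio of CPM (sGC ∆PC over sGC Ctr) for the 23 pairs of gene and class with at least 50 UMIs; bars are exact 95% intervals and dotted lines mark 2-fold. Past 2-fold lay Cxcl14, Cxcr4 and Cxcr6 in cancer cells and Cxcr4 in ECs on the higher side, and Cxcr6 in T cells (-1.08) on the lower side.

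Over all classes, 23 of 54 pairs of gene and class had at least 50 UMIs, and 5 were past 2-fold. By class, 0.888% to 4.21% of all genes were past it. Of these 5 pairs, 3 were in cancer cells, where 4.21% of 15289 genes were past 2-fold, 4.11% on the higher side and 0.105% on the lower side. There Cxcl14 stood at 1.05 CPM (0.951 to 1.15) in sGC Ctr and 2.52 CPM (2.35 to 2.69) in sGC ∆PC, a log2 ratio of 1.27 (1.10 to 1.44). Cxcr4 stood at 1.41 CPM (1.30 to 1.53) and 3.60 CPM (3.40 to 3.81), giving a log2 ratio of 1.35 (1.21 to 1.50), and Cxcr6 at 0.0609 CPM (25 UMIs) and 0.190 CPM (65 UMIs), giving a log2 ratio of 1.64 (0.96 to 2.37). Cxcl16 lay just under 2-fold, at 5.14 CPM (4.93 to 5.37) and 10.0 CPM (9.71 to 10.4), giving a log2 ratio of 0.97 (0.89 to 1.04). Alternatives moved Cxcl16 and Cxcl14 across the line. Cxcl16 gave 1.31 with mitochondrial UMIs under 5%, 1.70 after thinning, 1.55 as the mean of per-cell CPM and 1.60 without Scrublet doublets. Cxcl14 gave 0.87 with cells passing another gate kept and 0.88 in Leiden clusters. Cxcr4 stayed between 1.26 and 1.99 under all alternatives, and the Cxcr6 ratio in cancer cells was not computed under them. Scrublet took cells out of the sGC Ctr library only. This cut the Cxcl16 UMIs of its cancer cells from 2111 to 1286, while sGC ∆PC kept 3434.

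Each of these 4 genes stood at a small part of its level in macrophages or T cells. Cxcl14 also stood at a small part of its level in fibroblasts, its leading class. In the cancer-cell class, the summed marker lists of macrophages, granulocytes and T cells differed between the libraries in the same direction. The macrophage list stood at 125 and 245 CPM (log2 ratio 0.97, with 8 of 8 markers higher in sGC ∆PC), the granulocyte list at 32.8 and 66.6 CPM (1.02), and the T-cell list at 1.02 and 2.96 CPM (1.53), with no marker of these lists at 0. The pericyte list (0.56, with 9 of 9 markers higher in sGC ∆PC) and the B-cell list (0.53) were also higher, by less. The monocyte list (0.08), the dendritic-cell list (0.37), the NK-cell list (0.26), the fibroblast list (0.12) and the EC list (0.19) differed less again. The mast-cell list stood at -0.05, so not every immune list was higher and not every higher list was immune. Cxcl12 and Ackr3, with log2 ratios of -0.20 (-0.25 to -0.14) and 0.19 (0.08 to 0.30) in cancer cells, lay closer to 0 than the other 4 genes. The part of immune RNA in these values was not tested.

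**Figure D4:**
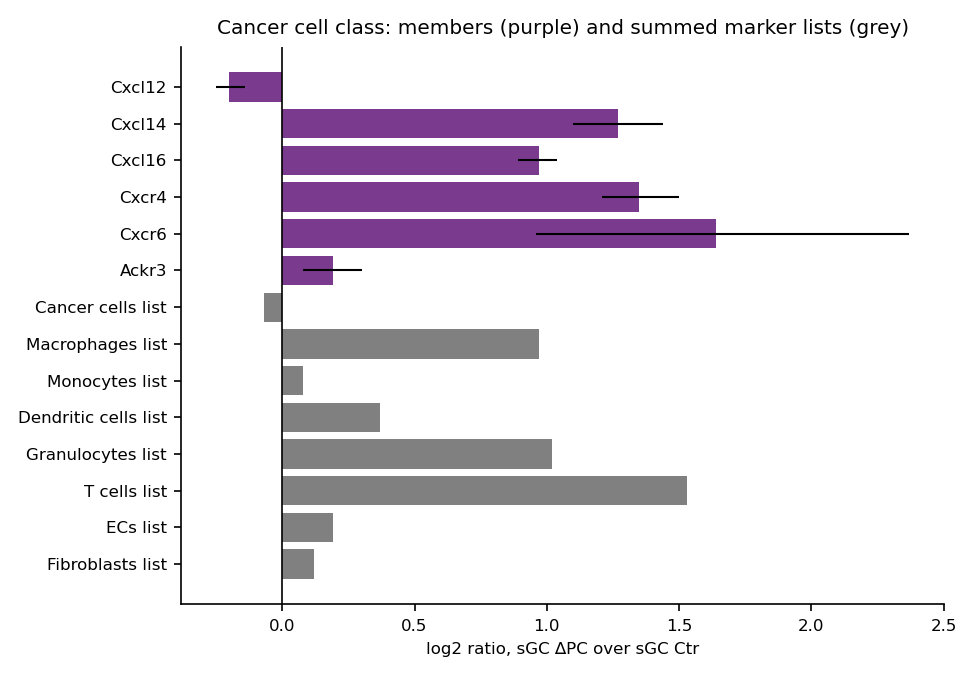
Log2 ratio (sGC ∆PC over sGC Ctr) in the cancer-cell class for the 6 genes (purple, with exact 95% intervals) and for a chosen part of the summed marker lists (grey). The pericyte (0.56), B-cell (0.53) and mast-cell (-0.05) lists are among those not drawn. Cxcl14, Cxcl16, Cxcr4 and Cxcr6 lay between 0.97 and 1.64, and the macrophage, granulocyte and T-cell lists between 0.97 and 1.53.

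Cells with and without a UMI of each gene were then compared inside a class, to describe which cells carry it. Detection depends on depth, so the median UMIs of both sides are given, and levels are in CPM. The comparison was repeated in cells of at least 5000 UMIs, except in T cells. Shares of cells that held both genes of a pair were not repeated at that depth. The gene lists of these comparisons were chosen after values had been seen, and the values are a description.

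In ECs, Cxcl12 went with genes of arteries in both libraries. Gja4, an arterial gap junction gene, stood at 199 CPM in ECs with a Cxcl12 UMI against 5.08 CPM in those without in sGC Ctr, and at 101 against 0 CPM in sGC ∆PC. Gja5, another arterial gap junction gene, stood at 96.9 against 0 and at 16.0 against 0 CPM, and Sema3g, an arterial semaphorin, at 59.7 against 3.05 and at 72.1 against 1.79 CPM. The arterial list of 8 genes summed to 3.05-fold (2.66 to 3.50) and 2.28-fold (1.90 to 2.75) more in ECs with Cxcl12, and to 3.19-fold and 2.17-fold in cells of at least 5000 UMIs. Within the list, Sox17 (102 against 107 CPM) and Hey1 (40.4 against 28.4) differed little in sGC Ctr, and Fbln5 took opposite directions (362 against 96.5, and 97.7 against 121). The median UMIs were 24540.5 with and 20027 without in sGC Ctr, and 23773 and 5480 in sGC ∆PC. The tip-cell list took opposite directions in the libraries, at 0.682-fold (0.626 to 0.743) and 1.59-fold (1.47 to 1.73). A venous list did so too, and was higher with Cxcl12 in sGC Ctr (1.48-fold) and lower in sGC ∆PC (0.439-fold). In cells of at least 5000 UMIs the venous list stood at 1.55-fold and 0.401-fold. A capillary list stood at 0.904-fold in sGC Ctr and 1.45-fold in sGC ∆PC.

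Cxcr4 and Ackr3 in ECs went with genes of endothelial tip cells, the leading cells of vessel sprouts. The tip-cell list of 6 genes (Apln, Esm1, Angpt2, Kcne3, Nid2 and Pgf) stood 2.26-fold (2.06 to 2.48) and 3.81-fold (3.27 to 4.46) higher in ECs with a Cxcr4 UMI than in those without, and 2.23-fold and 5.31-fold in cells of at least 5000 UMIs. Pgf, placental growth factor, stood at 495 against 112 CPM in sGC Ctr and at 452 against 111 CPM in sGC ∆PC. Esm1, a proteoglycan gene of tip cells, stood at 101 against 42.6 and at 305 against 26.7 CPM, while Selp, a venous adhesion gene, stood at 7.58 against 159 and at 18.4 against 57.3 CPM. The venous list was lower with Cxcr4 in both libraries, at 0.139-fold (0.102 to 0.187) and 0.436-fold (0.306 to 0.626). Split by Ackr3, the tip-cell list stood at 1.89-fold (1.74 to 2.06) and 2.38-fold (2.16 to 2.62), with Pgf at 486 against 160 and 529 against 125 CPM. Median UMIs were 28681 with and 16866 without Ackr3 in sGC Ctr, and 24431 and 4476 in sGC ∆PC. In cells of at least 5000 UMIs the tip-cell list stood at 1.86-fold and 2.49-fold.

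The arterial list was lower with either receptor in sGC Ctr ECs, while in sGC ∆PC ECs it was higher with Cxcr4, as with Cxcl12, and lower with Ackr3. ECs with Cxcr4 held 0.372-fold (0.324 to 0.426) of the arterial list in sGC Ctr and 2.02-fold (1.58 to 2.61) in sGC ∆PC, and Gja4 stood at 10.8 against 173 CPM and at 67.2 against 3.82 CPM. ECs with Ackr3 held 0.451-fold (0.393 to 0.517) and 0.648-fold (0.550 to 0.765). Counted by cell, 6 of 22 ECs with Cxcl12 also held Cxcr4 in sGC Ctr (27.3%, against 52.3% of ECs without Cxcl12), and 19 of 23 did in sGC ∆PC (82.6%, against 43.4%). Cxcr4 and Ackr3 shared cells in both: 69.0% of ECs with Cxcr4 held Ackr3 against 13.5% of those without in sGC Ctr, and 52.4% against 14.7% in sGC ∆PC. Of ECs with Cxcl12, 40.9% held Ackr3 against 36.4% of those without in sGC Ctr, and 52.2% against 28.3% in sGC ∆PC. ECs with Cxcr4 were deeper than those without, at medians of 28288 against 16862 UMIs in sGC Ctr tumors and 15144.5 against 3180.5 UMIs in sGC ∆PC tumors, and no test of the change in overlap was possible with 1 library per genotype.

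**Figure D5:**
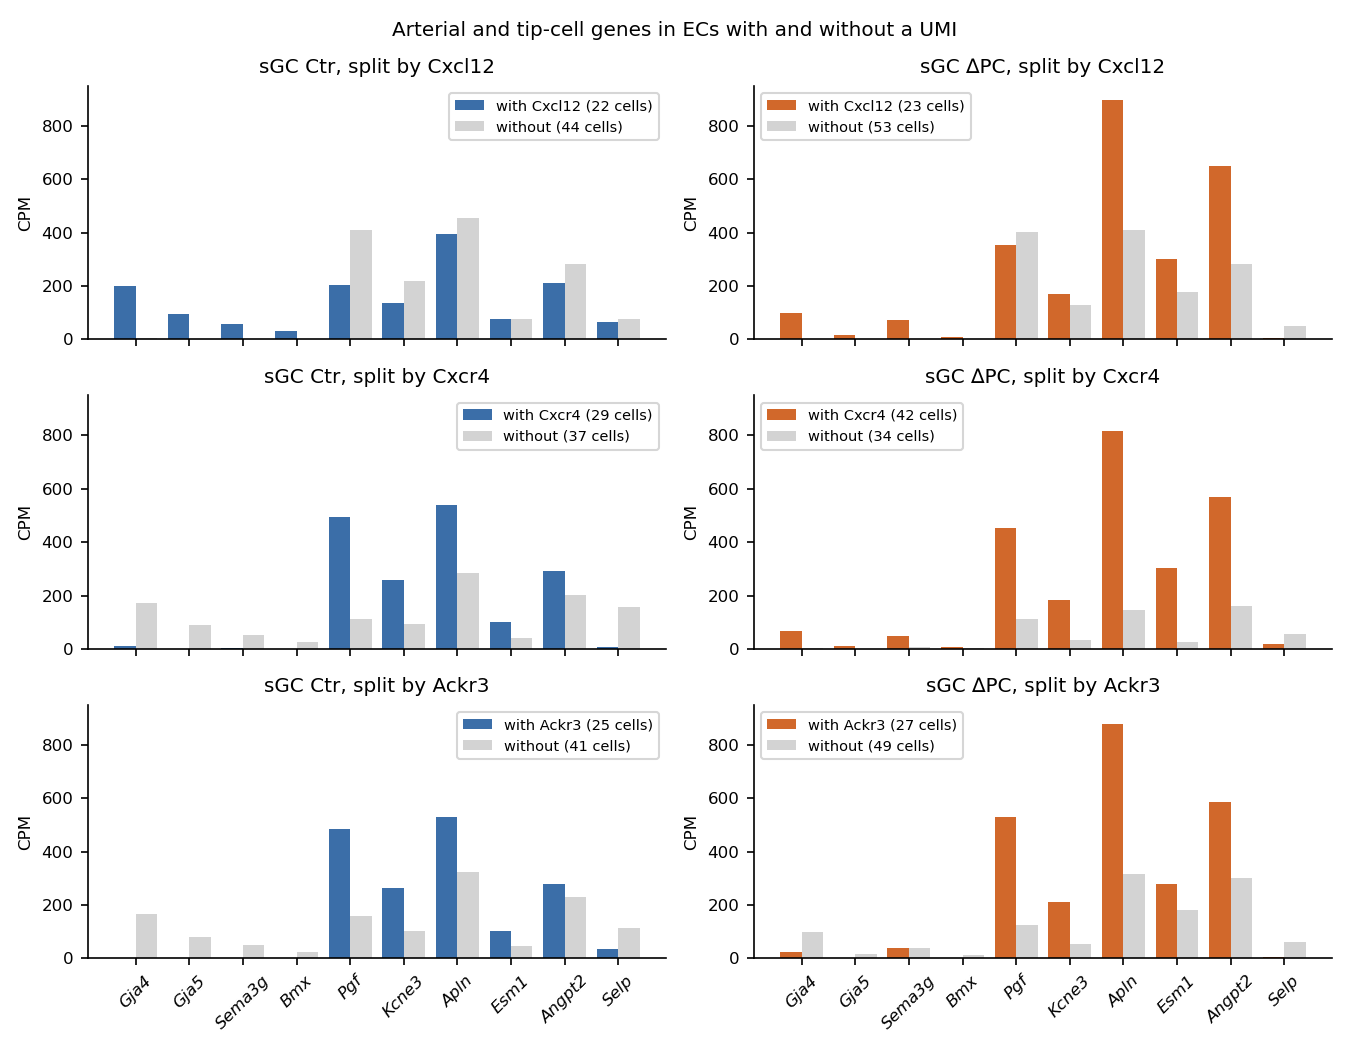
CPM of 4 arterial genes (Gja4, Gja5, Sema3g, Bmx), 5 tip-cell genes (Pgf, Kcne3, Apln, Esm1, Angpt2) and the venous gene Selp in ECs with (colored) and without (grey) a UMI of Cxcl12, Cxcr4 or Ackr3, in sGC Ctr (left) and sGC ∆PC (right). The genes shown are a chosen part of the arterial, tip-cell and venous lists. Left out are Sox17 and Hey1, which differed little with Cxcl12 in sGC Ctr, Fbln5, which took opposite directions, and Nid2. Gja4 was among the genes leading the Cxcl12 split, and Pgf and Kcne3 among those leading the Cxcr4 and Ackr3 splits. Gja4 stood at 199 against 5.08 CPM with and without Cxcl12 in sGC Ctr, and Pgf at 495 against 112 CPM with and without Cxcr4.

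Fibroblasts with Cxcl14 carried more of a contractile and matrix list (Acta2, Tagln, Thbs4, Tnc and Col12a1), at 2.58-fold (2.46 to 2.70) in sGC Ctr and 2.21-fold (2.11 to 2.32) in sGC ∆PC. Median UMIs were 22101 with and 22921 without Cxcl14 in sGC Ctr, and 6183 and 3344 in sGC ∆PC. In cells of at least 5000 UMIs the list stood at 2.58-fold and 2.16-fold. The list summed to 3289 and 3730 CPM in fibroblasts with Cxcl14. The smooth muscle list, which holds Acta2 and Tagln, summed to only 352 and 103 CPM over all fibroblasts. The folds of the list are thus mostly those of its matrix genes. Tnc, the matrix glycoprotein tenascin C, stood at 1316 against 380 CPM and at 1807 against 679 CPM, and Igfbp5, an insulin-like growth factor binding protein, at 543 against 232 and 549 against 73.6 CPM. The interferon-induced chemokine gene Cxcl9 stood at 180 against 2.85 and at 383 against 65.4 CPM with and without Cxcl14, and at 93.2 against 4.29 and 241 against 10.7 CPM with and without Cxcl12. Of fibroblasts with Cxcl12, 49.2% held Cxcl14 against 12.1% of those without in sGC Ctr, and 31.3% against 24.4% in sGC ∆PC.

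Fibroblasts with Cxcl12 carried the secreted Wnt modulator Sfrp2 at 224 against 32.9 CPM and at 183 against 22.9 CPM. They held 8.57-fold (7.46 to 9.88) and 1.70-fold (1.59 to 1.81) of the contractile and matrix list, again mostly a sum of matrix genes. An adventitial list (Pi16, Dpp4, Ly6c1 and Cd55) took opposite directions, at 0.586-fold (0.531 to 0.647) and 2.43-fold (1.97 to 3.03). Median UMIs were 22264 with and 21184 without Cxcl12 in sGC Ctr, and 7393.5 and 2252 in sGC ∆PC. In cells of at least 5000 UMIs the contractile and matrix list stood at 8.89-fold and 1.95-fold, and the adventitial list at 0.582-fold and 1.97-fold. Fibroblasts with Ackr3 carried Serpinb2, a plasminogen activator inhibitor gene, at 840 against 109 CPM and at 773 against 58.6 CPM, and Ptgs2, the inducible prostaglandin synthase, at 327 against 35.4 and 432 against 66.4 CPM. Nos2, the inducible nitric oxide synthase, stood at 76.1 against 6.23 and 90.1 against 7.78 CPM in the same cells. Of fibroblasts with Cxcl12, 46.7% held Ackr3 against 18.2% of those without in sGC Ctr, and 24.2% against 1.92% in sGC ∆PC, where fibroblasts with Ackr3 had a median of 24734 UMIs and those without 3148. In sGC Ctr the medians with and without Ackr3 were 23345 and 21485 UMIs.

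Macrophages with Cxcl14 had less of a list that marks resident-like macrophages (Folr2, Ccl8, Cd163 and Lyve1), at 0.432-fold (0.418 to 0.447) and 0.467-fold (0.450 to 0.485), and less of the MHC class II list, at 0.568-fold (0.560 to 0.577) and 0.534-fold (0.527 to 0.541). The chemokine gene Ccl8 stood at 105 against 642 CPM in sGC Ctr and at 145 against 591 CPM in sGC ∆PC. Spp1, which encodes osteopontin, stood higher with Cxcl14, at 1843 against 1259 and 2203 against 1590 CPM. Cspg4, whose promoter drives the Cre, stood at 78.1 against 40.5 and at 43.2 against 23.9 CPM in macrophages with and without Cxcl14. Median UMIs were 12091.5 with and 10728 without Cxcl14 in sGC Ctr, and 11233 and 3515 in sGC ∆PC. In cells of at least 5000 UMIs the resident-like list stood at 0.425-fold and 0.446-fold, and the MHC class II list at 0.566-fold and 0.499-fold.

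Macrophages without a Cxcl16 UMI were richer in an osteoclast-like list (Ctsk, Mmp9 and Acp5), of which macrophages with Cxcl16 held 0.102-fold (0.0958 to 0.109) in sGC Ctr and 0.194-fold (0.182 to 0.206) in sGC ∆PC, and 0.0861-fold and 0.136-fold in cells of at least 5000 UMIs. Acp5, tartrate-resistant acid phosphatase, stood at 63.3 CPM with and 605 CPM without Cxcl16 in sGC Ctr, and at 60.1 and 262 CPM in sGC ∆PC. Mmp9, a gelatinase gene, stood at 16.5 and 199 CPM and at 13.6 and 94.8 CPM. Cells with Cxcl16 numbered 2094 of 2274 and 2095 of 3307, with medians of 11561 and 9445 UMIs against 6526.5 and 1882.5 in those without. Zmynd15, which overlaps Cxcl16 on the other strand, stood at 52.1 against 16.7 and 54.7 against 18.2 CPM. Whether reads of either gene were counted for the other was not tested.

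Macrophages with Cxcr4 held 1.29-fold (1.27 to 1.32) and 1.35-fold (1.32 to 1.37) of a hypoxia list (Vegfa, Slc2a1 and Arg1) and 0.667-fold (0.649 to 0.685) and 0.643-fold (0.624 to 0.663) of the resident-like list. Vegfa, the main growth factor of ECs, stood at 81.6 against 47.3 CPM in sGC Ctr and at 134 against 73.0 CPM in sGC ∆PC. It was a small part of the list, which summed to 1334 and 1930 CPM in macrophages with Cxcr4. The folds of the list thus rest mostly on Slc2a1 and Arg1. Median UMIs were 11362 with and 11166 without Cxcr4 in sGC Ctr, and 10544 and 2788 in sGC ∆PC. In cells of at least 5000 UMIs the hypoxia list stood at 1.32-fold and 1.28-fold, and the resident-like list at 0.664-fold and 0.615-fold. Of macrophages with Cxcl16, 41.9% held Cxcr4 against 29.4% of those without in sGC Ctr, and 42.3% against 15.1% in sGC ∆PC.

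T cells with Cxcr6 held less of a list of regulatory T-cell genes in both libraries. The list had 1 UMI with and 74 without Cxcr6 in sGC Ctr, and 14 with and 68 without in sGC ∆PC. The folds were 0.0163 (0.000406 to 0.0935) and 0.361 (0.188 to 0.648). Foxp3, the transcription factor of regulatory T cells, stood at 0 CPM in the 34 T cells with Cxcr6 and at 275 CPM in the 42 without in sGC Ctr, and at 16.2 CPM in 27 and 134 CPM in 46 T cells in sGC ∆PC. The CD8 list (Cd8a and Cd8b1) stood at 2.10-fold (1.45 to 3.07) and 1.65-fold (1.14 to 2.37), and Nkg7, a cytotoxic granule gene, at 1200 against 371 and 865 against 489 CPM. The effector list stood at 2.54-fold (2.27 to 2.84) and 1.49-fold (1.26 to 1.77) with Cxcr6. A CD4 list was lower with Cxcr6 in sGC Ctr (0.219-fold, 0.0548 to 0.645) and did not differ in sGC ∆PC (1.02-fold, 0.436 to 2.24). A gamma-delta T-cell list (Trdc and Tcrg-C1) took opposite directions, at 712 against 20.6 CPM in sGC Ctr and at 8.08 against 69.1 CPM in sGC ∆PC. Median UMIs were 3066 with and 2660 without in sGC Ctr, and 3750 and 3794.5 in sGC ∆PC.

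The genes whose levels most resembled those of each member were ranked by Pearson's r of log2(CPM + 10) over the 18 sums of class and library, among 14877 genes in no marker list. The 18 points share 2 libraries and differ in depth, so r is a description. Cxcl12 was most like Pcdhga9 (0.989), Slco2a1 (0.980), Angptl4 (0.978), Ackr3 (0.963) and S100a16 (0.962), and Ackr3 was most like S100a16 (0.981), Pcdhga9 (0.976), Angptl4 (0.975), Dnm3 (0.967) and Mcc (0.964). Cxcl14 was most like Olfml3 (0.980), C4b (0.976), Igf1 (0.960), Bdh2 (0.954) and Tmem26 (0.942). Cxcl16 resembled the myeloid genes Tbxas1 (0.968), P2ry6 (0.946), Cd180 (0.946), Rab7b (0.944) and Clec12a (0.941). Cxcr4 had lower values throughout, led by Abcg1 (0.921), Neu1 (0.901), Entpd1 (0.892), N4bp1 (0.884) and Ets2 (0.882). Cxcr6 resembled the T-cell genes Bcl11b (0.995), Gzmb (0.993), Gata3 (0.990), Ctla4 (0.990) and Icos (0.990).

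The wider pathway was read from 61 genes in 5 lists: other homeostatic chemokines and receptors, enzymes that cut or shed chemokines and decoy receptors, binding partners, receptor signaling genes and oxygen-sensing regulators. In fibroblasts 37 of them had at least 50 UMIs, and 4 were past 2-fold, all higher in sGC ∆PC (2.35% of all genes were past it in either direction). They were Cd74, the invariant chain that also binds the cytokine Mif (50.8 and 110 CPM), the arrestin gene Arrb1 (8.65 and 18.7 CPM), and the regulators of G protein signaling Rgs1 (3.35 and 19.4 CPM) and Rgs2 (11.7 and 63.3 CPM). The macrophage list in this class stood at 162 and 369 CPM, with 7 of 8 markers higher in sGC ∆PC, and its part in these values was not tested. In pericytes 0 of 16 were past 2-fold (3.07% of all genes), and in ECs 1 of 27 was higher and 1 lower (1.65% of all genes in either direction). The lower one was Ackr1, an atypical chemokine receptor of venules, with 79 UMIs (49.3 CPM) in sGC Ctr and 7 UMIs (5.91 CPM) in sGC ∆PC, a log2 ratio of -3.06 (-4.42 to -1.95). The higher one was Cd74, at 34.9 and 104 CPM (1.57, 1.11 to 2.06), in a class where the macrophage list stood at 145 and 225 CPM. Cd74 was also past 2-fold on the higher side in granulocytes, T cells and cancer cells, as given below.

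In macrophages 1 of 41 pathway genes was past 2-fold (1.48% of all genes), Cxcl13, the B-cell chemokine, which had 58 UMIs in the sGC Ctr library and 1 UMI in the sGC ∆PC library. In monocytes the thymus-homing receptor gene Ccr9 was the 1 of 35 (0.888% of all genes), at 8.12 and 22.4 CPM. In dendritic cells 0 of 26 were past 2-fold (1.53% of all genes), and in granulocytes Cd74 was the 1 of 24, at 72.8 and 165 CPM (2.66% of all genes). In T cells Cd74 (101 and 211 CPM) and Rgs2 (120 and 52.8 CPM) were the 2 of 18, against 2.40% of all genes. In cancer cells 10 of 48 were past 2-fold, all higher in sGC ∆PC as were 4.11% of all genes of that class: Ccr7, Ccr9, Dpp4, Mmp9, Cd74, Rgs1, Rgs2, Rgs16, Vav1 and Epas1. Several of these are best known from immune cells. The macrophage, granulocyte and T-cell lists were also higher in this class, and their part in the values of these genes was not tested. Epas1, which encodes a hypoxia-inducible factor, stood at 0.239 and 0.532 CPM. The medians of the log2 ratios over the pathway genes lay between -0.14 and 0.17 in the 9 classes, and those over all genes between -0.10 and 0.01.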

How the data were processed

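Cells of 3 LLC tumors per genotype were run on the 10x Chromium 3' platform. The authors aligned the reads and counted UMIs with Cell Ranger 6.1.1 on mm10, and the deposited matrices hold raw UMI counts per gene and barcode. Cells within 3 median absolute deviations of log UMIs and log genes and under 10% mitochondrial UMIs were kept. This left 12220 sGC Ctr cells, close to the study's own count, and 22498 sGC ∆PC cells, far more than its count. The study also left out clusters with mixed markers, a step that was not rebuilt. Of the kept cells, 547 in sGC Ctr and 3928 in sGC ∆PC held under 2000 UMIs. Many sGC ∆PC cells outside the study's set thus enter the values compared between the libraries. A cell entered a class where it held at least 3 markers and its score reached 0.3. The score was the mean over the markers of the cell's level relative to reference cells, each capped at the reference level. Reference cells were those with at least 75% of the list. Cells passing several gates were left out, and classes under 20 cells (NK, B and mast cells) were not used. The members and lists were chosen with earlier results of these data known, the gate cut was set after viewing marker distributions but not member values, and the lists for cells with and without a UMI were chosen after values were seen. The genes named were the 6 members, the 5 genes most like each, the pathway genes past 2-fold, and genes leading the splits. Scrublet called 520 of 12220 sGC Ctr cells doublets and 0 of 22498 sGC ∆PC cells, so it had not worked in the latter, and its calls were used as an alternative only. Python 3.11.15 with scanpy 1.11.5 and scipy 1.17.1 was used. The ratio code was tested on simulated data.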

Additional observations from a re-analysis of the deposited data

Results flagged for a closer look

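Cells that passed no gate take part in no comparison and still held UMIs of all 6 genes. They numbered 1080 in sGC Ctr and 4562 in sGC ∆PC, with medians of 3763.5 and 1590.5 UMIs, and held 1.90% and 3.89% of all UMIs of kept cells. They held 2.71% and 2.89% of the Cxcl12 UMIs, 6.56% and 7.12% of Cxcl14, 4.14% and 7.92% of Cxcl16, 7.95% and 12.8% of Cxcr4, 14.2% and 10.2% of Cxcr6, and 1.60% and 5.39% of Ackr3 (sGC Ctr and sGC ∆PC). For Cxcr6 these shares rest on 22 and 17 UMIs. Cxcl14, Cxcl16, Cxcr4 and Cxcr6 thus stood above the share of all UMIs that these cells hold in both libraries, Cxcl12 above it in sGC Ctr alone and Ackr3 above it in sGC ∆PC alone. What these cells are was not tested.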

How the results depend on the processing

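For the leading class of each gene and for Cxcl12 in ECs and pericytes, 82 alternative log2 ratios were computed. Of these, 65 stayed within the counting interval and 17 moved. A reversal was counted only where the main ratio was at least 2-fold, as for Cxcr6 in T cells and Cxcl12 in pericytes, and none was found. Among smaller ratios, Cxcl12 and Ackr3 in fibroblasts and Cxcl12 in ECs changed sign under some alternatives. With mitochondrial UMIs under 5%, Cxcl14 in fibroblasts gave -0.94 and Cxcl12 in ECs 0.66. With 1 more marker needed, Cxcl14 in fibroblasts gave -0.74 and Cxcl16 in macrophages -0.22. Thinned to 2000 UMIs, fibroblasts gave -0.55 for Cxcl12, -1.32 for Cxcl14 and -0.97 for Ackr3, macrophages -0.24 for Cxcl16 and ECs -1.07 for Cxcl12. The mean of per-cell CPM gave -0.49, -1.53 and -1.14 for the same fibroblast genes, -0.45 for Cxcl16 in macrophages and -1.19 for Cxcl12 in ECs. Cxcl16 in macrophages gave -0.10 relative to the median gene and -0.09 in cells with a cancer-cell RNA share under 25%. Without the cell with most UMIs, an alternative added after seeing the data like the limit of 5000 UMIs, Cxcl12 in ECs gave 0.16. The cause of these shifts was not tested. Counts past 2-fold were judged apart, as unchanged within 1.5 times. Pathway genes past 2-fold moved from 21 to 41 with at least 20 UMIs and to 13 with at least 100 UMIs. The 6 genes gave 5 of 23 pairs at the main limit, 5 of 28 with at least 20 UMIs and 4 of 21 with at least 100 UMIs. Their count thus stayed, and it was not repeated under the other alternatives. Single pairs did cross 2-fold there. After thinning, Cxcl14 in fibroblasts (-1.32) and Cxcl16 in cancer cells (1.70) were among those past it, and Cxcr6 in T cells (-0.75) was not. Of 119 further ratios 95 stayed and 24 moved. Among these, Cxcl14 in cancer cells lay between 0.87 and 2.16, Cxcl16 in fibroblasts between 0.36 and 1.51 and Gucy1b1 in pericytes between -2.46 and -0.76. Cxcl12 in pericytes gave a value under 6 alternatives and Cxcr6 in T cells under 10, since Leiden clustering named no cluster of either class and some settings left no UMI. With log2(CPM + 1), 2 or 3 of the 5 genes most like each member were shared. The lower depth of the sGC ∆PC library limits its shares of positive cells.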
